A study of Mus musculus with 39 samples.

Results

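Gene expression in atherosclerotic plaques was compared between mice that had received a drug inside high-density lipoprotein (HDL) nanoparticles, pooled over 3 drugs, and mice that had received PBS. The inhibitor side held 29 of the 39 samples, all those labelled TRAF6i-HDL (10), mTORi-HDL (10) or S6K1i-HDL (9), and the other side held the 10 samples labelled PBS. Each drug arm carried equal weight, so that every fold change below is the mean of 3 arm means against the PBS mean. The comparison asks what the HDL-borne drugs had in common.

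All 39 samples came from female Apoe-/- mice (B6.129P2-Apoetm1Unc), which lack apolipoprotein E and carry high plasma cholesterol. They had eaten a high-cholesterol diet for 12 weeks and were 20 weeks old when treatment began. Treatment was 4 intravenous injections over 7 days, with tissue taken 24 hours after the last one. The protocol gives the placebo as saline and the drug dose as 5 mg/kg, and it calls the TRAF6i-HDL particle CD40-HDL and uses rapamycin-HDL and PF-4708671-HDL for the other two. TRAF6 is an adaptor protein of CD40 signalling, mTOR is a growth-control kinase that rapamycin inhibits, and PF-4708671 blocks S6K1, the product of Rps6kb1, which mTOR activates. No sample here carried an empty particle, so an effect of the HDL carrier and an effect shared by the drugs cannot be told apart. CD68-rich areas of the plaque were cut by laser from 6 µm aortic root sections, and their RNA was amplified as whole transcriptomes. CD68 staining chose the areas, so the level of Cd68 is no result. The labels do not say how many mice stand behind a sample, and p-values therefore measure the spread between samples, which may be partly technical.

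Plaque macrophages take up lipoproteins through scavenger receptors, hydrolyse their cholesteryl esters in lysosomes and pass cholesterol on to HDL through ABC transporters, and those that take up more than they export become foam cells. Secreted and membrane proteins are folded in the endoplasmic reticulum (ER) by chaperones. When folding falls behind, the unfolded protein response raises these chaperones through the transcription factors ATF6 and XBP1, and the S6K1 and mTOR pathway is known for raising protein synthesis and so the load on the ER.

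The libraries differed between the sides in depth and in ribosomal RNA, which bears on every result below. Counts in genes ran from 50091 to 3314490 in PBS and from 66602 to 6833490 in the inhibitor samples, with means of 1388060 ± 938986 (SD, n = 10) and 3127020 ± 1704130 (SD, n = 29). The inhibitor mean was higher, with 25 of 29 inhibitor samples exceeding the PBS mean (two-sided permutation test, adjusted p = 0.0160 over 6 library measures). Rn45s, the precursor of ribosomal RNA, took 12.95% ± 10.9 of the counts in PBS and 25.6% ± 11.8 in the inhibitor samples (permutation test, adjusted p = 0.0160, with 24 of 29 above the PBS mean). Its median share was lowest for PBS (7.49%), followed by TRAF6i-HDL (15.9%), mTORi-HDL (25.6%) and S6K1i-HDL (41.8%). Of the PBS libraries, replicates 1 to 6 held at most 7.89% and replicates 7 to 10 at least 15.03%. The libraries of PBS replicate 9, TRAF6i-HDL replicate 7 and S6K1i-HDL replicate 1 held under 200000 counts, and there a count of 0 allows a level of up to 37.9, 29.03 and 23.7 CPM (TMM-scaled CPM, the count of a gene per 1000000 counts; 3 counts in 1 library).

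Of 10411 genes tested by edgeR's quasi-likelihood test, 97 were higher (0.932%) and 124 lower (1.19%) in the pooled inhibitor arms at a Benjamini-Hochberg adjusted p under 0.05, which is 2.12% in either direction. Changes were of moderate size. Of the genes that passed, 15 higher and 11 lower ones changed by at least 1 on the log2 scale, and the median was 0.65 for those higher and -0.65 for those lower. At an unadjusted p under 0.05 there were 2109 genes (20.3%). The call rested on few libraries at a time. Without PBS replicate 3, 10 genes were higher and 4 lower, and without TRAF6i-HDL replicate 8, 326 were higher and 364 lower. Because the Rn45s share moved with the groups, 2 further fits are used beside the main one. Whether the drugs changed that share was not tested, and if they did, these fits could also remove part of their effect. One took the log2 Rn45s share as a covariate and called 0 genes higher (0%) and 4 lower (0.0384%), with 392 higher and 323 lower at an unadjusted p under 0.05; no other tool was run in that setting. The other, chosen after the data were seen, kept the 25 libraries with an Rn45s share of 10 to 35%, of which 4 were PBS, 9 TRAF6i-HDL, 9 mTORi-HDL and 3 S6K1i-HDL. It called 3 genes higher (0.0263%) and 15 lower (0.132%). All 3 libraries under 200000 counts lay in that range, and this fit was not repeated without them. When these 3 were left out of the main fit, 122 genes were higher (1.13%) and 163 lower (1.51%). With the Rn45s covariate also added, 0 were higher and 4 lower (0.037%). With log2 total counts as the covariate, 1 was higher (0.00961%) and 5 lower (0.048%). The lower ones were Sdf2l1, Fabp5, Hsp90b1, Psap and Pdia4. Of the 221 genes called in the main fit, Sdf2l1, Pdia4 and Hsp90b1 passed with the Rn45s covariate, and these and F13a1 passed in the libraries of 10 to 35% Rn45s, so that every other gene named below as having risen or fallen lost its call in both. In that range the mean Rn45s share was 24.6% in PBS and 19.5%, 24.9% and 25.5% in the 3 arms.

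**Figure D1:**
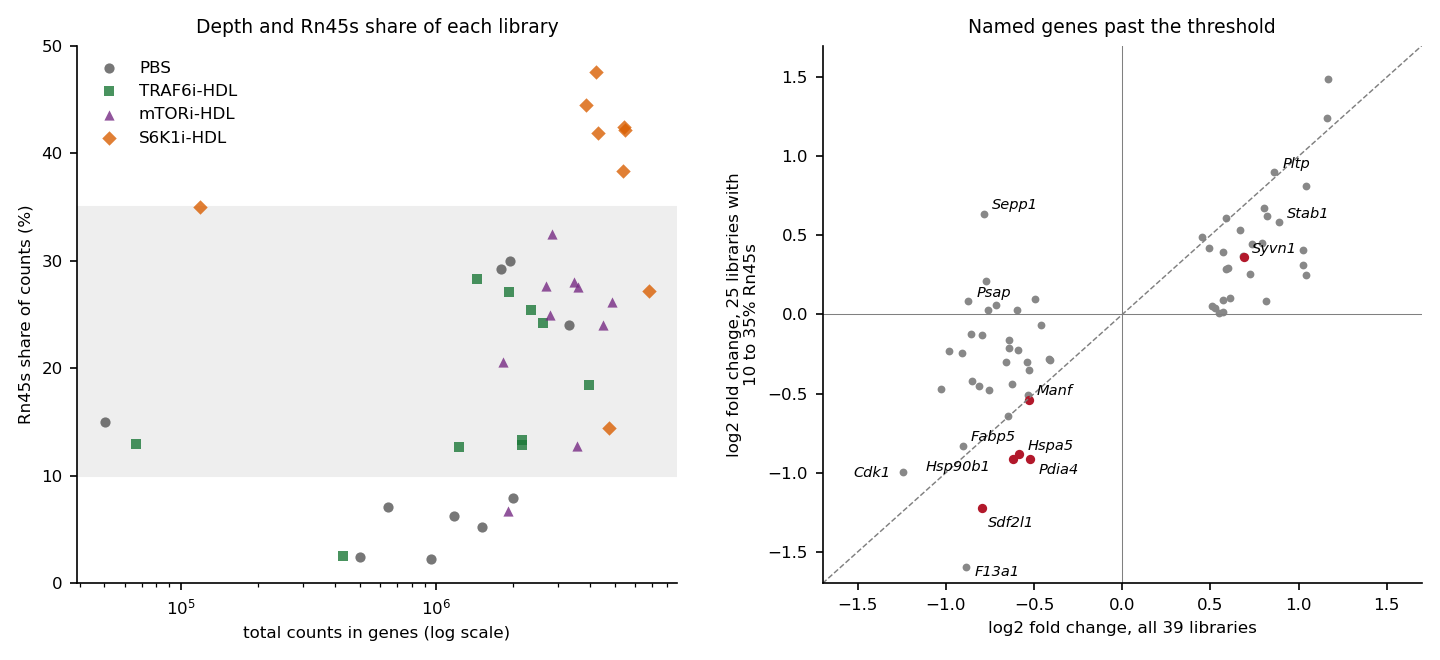
Left, total counts in genes (log scale) against the Rn45s share of counts in percent, 1 point per library, coloured by group, with the range of 10 to 35% shaded; 6 PBS points lie under it and 6 S6K1i-HDL points above it. Right, log2 fold change of the named genes past the threshold in all 39 libraries (x axis) and in the 25 libraries of the shaded range (y axis), with ER genes in red and equality dashed; Sdf2l1 lies at -0.80 and -1.22, and Psap at -0.88 and 0.08.

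Genes of ER protein folding fell in the mean of the 3 inhibitor arms, and 3 of them were called in all 3 of these fits. No other list held a called gene in both further fits. With log2 total counts as the covariate, however, the foam cell and lysosomal lists held 1 lower gene each (Fabp5 and Psap). Of 26 tested genes on a list of the unfolded protein response and its chaperones, 5 fell and 1 rose, against 1.19% and 0.932% of all genes, and the median log2 fold change was -0.22 against 0.00 over all genes. Those that fell were Sdf2l1, Hsp90b1, Hspa5, Pdia4 and Manf, and the one that rose was Syvn1. Sdf2l1, Pdia4 and Hsp90b1 were the genes called in all 3 fits. In edgeR's test of each single arm against PBS, these genes passed for S6K1i-HDL only (adjusted p of 0.000239, 0.00457 and 0.000271). Their adjusted p was 0.153, 0.233 and 0.313 for TRAF6i-HDL and 0.0595, 0.437 and 0.168 for mTORi-HDL. With the Rn45s share as a covariate the list held 3 lower and 0 higher genes, with a median of -0.26. In the libraries of 10 to 35% Rn45s it again held 3 lower and 0 higher genes, with a median of -0.44.

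Sdf2l1 encodes a small ER protein that works with the chaperone BiP. It had the smallest p of all genes that fell. Its level in PBS had a lowest value of 25.3, a median of 59.4 and a highest of 94.1 CPM. These values were 9.68, 37.1 and 50.7 CPM for TRAF6i-HDL, 27.7, 43.6 and 58.4 CPM for mTORi-HDL, and 0, 28.98 and 46.6 CPM for S6K1i-HDL. All 29 inhibitor samples lay below the PBS median and 3 below every PBS sample, while the ranges overlapped. The lowest PBS value came from PBS replicate 9. The samples below it included TRAF6i-HDL replicate 7 (9.68 CPM) and S6K1i-HDL replicate 1 (0 CPM). These libraries held under 200000 counts, so that 1 count is worth many CPM. The log2 fold change was -0.80 ± 0.14 (SE, adjusted p = 0.00377). It was -0.95 ± 0.15 with the Rn45s covariate (adjusted p = 0.000563) and -1.22 ± 0.20 in the libraries of 10 to 35% Rn45s (adjusted p = 0.0024). The call remained in each of the 39 fits that left out 1 library.

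Hsp90b1 encodes GRP94, the ER member of the HSP90 family. PBS values ran from 948 to 2438 CPM with a median of 1540 CPM. The medians were 1176 CPM with TRAF6i-HDL (913 to 1748), 1251 CPM with mTORi-HDL (921 to 1957) and 822 CPM with S6K1i-HDL (636 to 1171). The S6K1i-HDL arm was the lowest, 11 inhibitor samples lay below every PBS sample, and 25 of 29 lay below the PBS median. The log2 fold change was -0.62 ± 0.13 (adjusted p = 0.0125), -0.66 ± 0.14 with the Rn45s covariate (adjusted p = 0.047) and -0.91 ± 0.19 in the libraries of 10 to 35% Rn45s (adjusted p = 0.0188). The call was lost in 1 of the 39 fits that left out a library, the one without PBS replicate 3 (adjusted p = 0.0578). The arms differed from each other in Hsp90b1 (adjusted p = 0.0399 in the test among arms). Arm values were -0.45 for TRAF6i-HDL, -0.42 for mTORi-HDL and -0.99 for S6K1i-HDL.

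Pdia4 encodes a protein disulfide isomerase that forms disulfide bonds in the ER. Its PBS values lay between 70.3 and 168 CPM with a median of 92.7 CPM, and the arm medians were 69.9, 82.96 and 59.4 CPM for TRAF6i-HDL, mTORi-HDL and S6K1i-HDL. Of the inhibitor samples, 23 of 29 lay below the PBS median and 14 below every PBS sample. The log2 fold change was -0.52 ± 0.14 (adjusted p = 0.0356), -0.75 ± 0.14 with the Rn45s covariate (adjusted p = 0.0091) and -0.91 ± 0.17 in the libraries of 10 to 35% Rn45s (adjusted p = 0.0104). In the fit of all libraries the call was lost without PBS replicate 1, 3, 5, 6, 7, 8 or 10 or S6K1i-HDL replicate 3.

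Hspa5 encodes BiP, the main ER chaperone of the HSP70 family. Its median was 867 CPM in PBS (543 to 1355), 616 CPM with TRAF6i-HDL (422 to 1154), 653 CPM with mTORi-HDL (499 to 1302) and 432 CPM with S6K1i-HDL (324 to 529.7). Every S6K1i-HDL sample lay below every PBS sample, while the other arms overlapped PBS. The pooled log2 fold change was -0.58 ± 0.14 (adjusted p = 0.0243). It kept its size with the Rn45s covariate (-0.59, adjusted p = 0.272) and was -0.88 ± 0.21 in the libraries of 10 to 35% Rn45s (adjusted p = 0.0539), without passing in either. The call was lost without PBS replicate 3 or 7. The arms differed from each other in Hspa5 (adjusted p = 0.00626 in the test among arms).

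Manf, a secreted ER stress-induced factor, had a log2 fold change of -0.53 ± 0.14 (adjusted p = 0.0303), with 26 of 29 inhibitor samples below the PBS median. It also differed among the arms (adjusted p = 0.00568), with arm values of -0.32 for TRAF6i-HDL, -0.28 for mTORi-HDL and -0.99 for S6K1i-HDL. Syvn1 encodes HRD1, the ubiquitin ligase of ER-associated degradation, which the unfolded protein response also raises. It went the other way, with medians of 18.1 CPM in PBS and 37.1, 28.1 and 37.7 CPM in the arms and a log2 fold change of 0.69 ± 0.19 (adjusted p = 0.0357). Of the inhibitor samples, 26 of 29 lay above the PBS median. Neither gene passed with the Rn45s covariate (log2 fold changes of -0.32 for Manf and 0.39 for Syvn1). The call of Manf was lost without PBS replicate 1, 3, 4, 5 or 6, and that of Syvn1 without PBS replicate 1, 3, 4 or 6, TRAF6i-HDL replicate 4 or S6K1i-HDL replicate 2, 3 or 4.

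**Figure D2:**
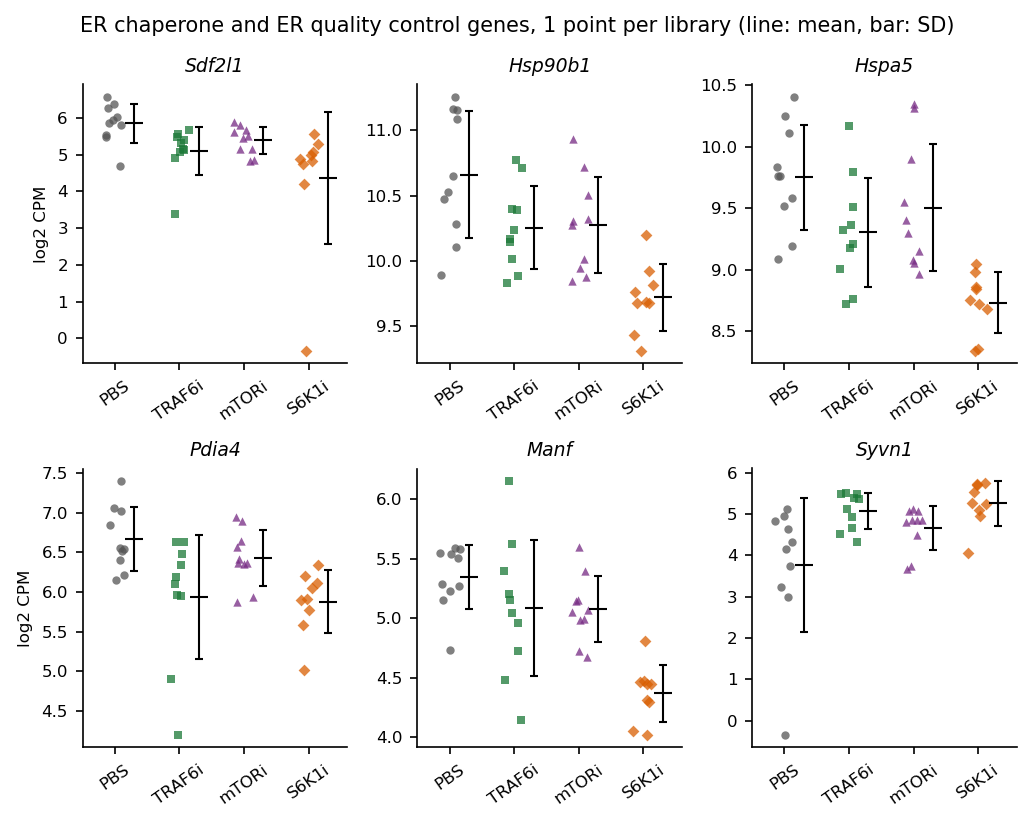
Log2 CPM (prior count 2) of 6 ER genes in every library, with group means and SD bars for PBS (n = 10), TRAF6i-HDL (n = 10), mTORi-HDL (n = 10) and S6K1i-HDL (n = 9). Sdf2l1, Hsp90b1, Hspa5, Pdia4 and Manf are lowest on average in S6K1i-HDL, and Syvn1 is lowest in PBS; the isolated points near the bottom of the Sdf2l1 and Syvn1 panels are libraries under 200000 counts.

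Chaperone genes of this kind are known to be driven through the ER stress element, in which CCAAT and CCACG stand 9 bases apart. The promoters of 5 of the 6 genes described above (Manf is not shown) are given because all belong to that gene group yet only some hold the full element. The windows span 250 bases before to 50 after the start in RefSeq on GRCm38.p6, written 5′ to 3′ on the gene's strand. They are chr10:86705395-86705694 (minus strand) for Hsp90b1, chr2:34771840-34772139 (plus) for Hspa5, chr19:6046326-6046625 (plus) for Syvn1, chr16:17132334-17132633 (minus) for Sdf2l1 and chr6:47813463-47813762 (minus) for Pdia4. Capitals mark full elements in the first 3, on either strand, and single parts of the element (CCAAT or CCACG, on either strand) in the last 2.
Hsp90b1: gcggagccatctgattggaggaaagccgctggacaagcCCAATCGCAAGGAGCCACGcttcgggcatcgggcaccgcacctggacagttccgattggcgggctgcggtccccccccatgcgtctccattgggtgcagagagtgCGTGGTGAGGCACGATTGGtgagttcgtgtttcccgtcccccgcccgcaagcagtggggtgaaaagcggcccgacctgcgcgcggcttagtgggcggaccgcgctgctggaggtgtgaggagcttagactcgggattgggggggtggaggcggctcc
Hspa5: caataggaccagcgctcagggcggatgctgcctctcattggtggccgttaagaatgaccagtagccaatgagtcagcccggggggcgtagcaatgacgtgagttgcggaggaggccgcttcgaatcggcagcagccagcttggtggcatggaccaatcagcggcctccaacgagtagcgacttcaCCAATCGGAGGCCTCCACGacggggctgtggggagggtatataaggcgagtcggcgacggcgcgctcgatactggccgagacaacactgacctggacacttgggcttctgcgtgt
Syvn1: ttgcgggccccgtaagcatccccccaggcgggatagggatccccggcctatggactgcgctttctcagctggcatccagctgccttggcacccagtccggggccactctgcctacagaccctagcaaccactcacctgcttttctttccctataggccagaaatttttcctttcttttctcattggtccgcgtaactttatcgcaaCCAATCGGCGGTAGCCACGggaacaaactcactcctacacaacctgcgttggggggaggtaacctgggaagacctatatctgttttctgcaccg
Sdf2l1: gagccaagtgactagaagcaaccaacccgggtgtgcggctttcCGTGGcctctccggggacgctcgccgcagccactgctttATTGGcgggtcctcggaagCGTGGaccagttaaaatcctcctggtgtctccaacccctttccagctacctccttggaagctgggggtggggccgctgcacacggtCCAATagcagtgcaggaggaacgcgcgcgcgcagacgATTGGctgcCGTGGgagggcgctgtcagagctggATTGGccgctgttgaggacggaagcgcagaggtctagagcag
Pdia4: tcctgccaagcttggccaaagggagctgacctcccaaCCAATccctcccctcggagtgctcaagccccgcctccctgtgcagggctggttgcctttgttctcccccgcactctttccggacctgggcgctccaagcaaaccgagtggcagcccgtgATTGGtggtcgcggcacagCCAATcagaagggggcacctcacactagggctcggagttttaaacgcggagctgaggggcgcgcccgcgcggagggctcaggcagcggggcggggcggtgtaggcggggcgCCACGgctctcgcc

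Hsp90b1 held 2 full elements, and Hspa5 and Syvn1 held 1 each. Sdf2l1 held 4 CCAAT and 3 CCACG and Pdia4 3 and 1, with no pair at that spacing in the window. Of the genes shown that hold the full element, Hsp90b1 and Hspa5 fell and Syvn1 rose in the main fit. A link between the element and the direction of change was not tested. The full element was present in 13 of 8257 tested genes with a promoter entry (0.157%) and in 8 of 22 on the unfolded protein response list (36.4%). Among genes that passed, it was in 2 of 80 higher and 2 of 98 lower ones. The element was looked up after the gene values were seen. Of 5 other motifs searched on both strands, the AP-1 site TGANTCA was in 6.25% of higher, 8.16% of lower and 4.90% of all promoters. The E-box CACGTG was in 6.25%, 9.18% and 10.5%, the TATA box TATAAA in 15%, 9.18% and 6.89%, the cAMP response element TGACGTCA in 3.75%, 3.06% and 3.38%, and the interferon response element in 0%, 6.12% and 3.26%.

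Genes for bringing proteins into the ER and adding sugars to them, a list added after the data were seen, showed the same direction. Of 32 tested, edgeR called 5 lower and 0 higher, against 1.19% and 0.932% of all genes. At an unadjusted p under 0.05, 12 were lower and 0 higher, against 1095 and 1014 of all 10411. By DESeq2, 8 were lower and 0 higher. The median was -0.23, and 28 lay below 0, against 5246 of all 10411. Those that fell were Spcs2 of the signal peptidase (-0.73 ± 0.19), Rpn1 of the oligosaccharyltransferase (-0.61 ± 0.16), Mcfd2, a cargo receptor subunit (-0.58 ± 0.16), Srp14 of the signal recognition particle (-0.57 ± 0.15) and Calu, a calcium-binding ER protein (-0.41 ± 0.12). None of the list passed with the Rn45s covariate or in the libraries of 10 to 35% Rn45s, where the medians were -0.09 and -0.24. On a list of 20 heat shock chaperones outside the ER, 1 fell, Hspe1 of the mitochondrial matrix (-0.53 ± 0.15, adjusted p = 0.0464), and the median was 0.04.

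On the lists of scavenger and lipoprotein receptors and of HDL, cholesterol efflux and LXR genes, only Stab1, Lrp1, Pltp and Srebf1 rose. Of the 18 and 24 genes tested on these lists, 7 and 8 had a log2 fold change below 0. Stab1 encodes stabilin-1, a surface receptor of macrophages and sinusoids that clears modified proteins. It had the smallest p of all genes that rose. Its median was 57.4 CPM in PBS (25.3 to 80.8), 113 CPM with TRAF6i-HDL (41.8 to 202), 77.1 CPM with mTORi-HDL (49.7 to 96.7) and 127 CPM with S6K1i-HDL (87.2 to 166). Every S6K1i-HDL sample and 22 of all 29 inhibitor samples lay above every PBS sample. The log2 fold change was 0.89 ± 0.16 (adjusted p = 0.00377), called in each of the 39 fits that left out 1 library. The arms differed from each other (adjusted p = 0.00798), with 1.12 for TRAF6i-HDL, 0.42 for mTORi-HDL and 1.13 for S6K1i-HDL. With the Rn45s covariate it was 0.43 (adjusted p = 0.441), and in the libraries of 10 to 35% Rn45s it was 0.58 ± 0.19 (adjusted p = 0.256).

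Apart from the lists added later, the named genes called at an adjusted p of 0.0175 or more kept their call in at least 10 and at most 37 of the 39 leave-one-out fits. Pltp encodes phospholipid transfer protein, which remodels HDL and is a target of the liver X receptors (LXR). Its values were 37.9 to 117 CPM in PBS (median 83.7), and the arm medians were 187, 128 and 198 CPM for TRAF6i-HDL, mTORi-HDL and S6K1i-HDL. Of 29 inhibitor samples, 21 lay above every PBS sample, although the lowest mTORi-HDL sample (37.6 CPM) lay below them all. The log2 fold change was 0.86 ± 0.19 (adjusted p = 0.0156), and it was 0.38 with the Rn45s covariate and 0.90 ± 0.26 in the libraries of 10 to 35% Rn45s (adjusted p = 0.191). Srebf1, the sterol regulatory factor that LXR raises, had a log2 fold change of 0.57 ± 0.16 (adjusted p = 0.0464), which was 0.23 with the Rn45s covariate and 0.09 ± 0.22 in the libraries of 10 to 35% Rn45s. Lrp1, a large receptor for lipoproteins and proteases, had 0.55 ± 0.15 (adjusted p = 0.0388), which was 0.04 with the Rn45s covariate and 0.01 ± 0.18 in the libraries of 10 to 35% Rn45s.

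Most genes of cholesterol export did not pass. Of 24 tested genes on the list of HDL, cholesterol efflux and LXR genes, 2 rose (Pltp and Srebf1) and 0 fell, against 0.932% and 1.19% of all genes, with a median of 0.09 (edgeR; 4 higher and 1 lower at an unadjusted p under 0.05, and by DESeq2 2 higher and 0 lower). Abca1, the transporter that loads cholesterol onto apolipoprotein A-I, had medians of 1752 CPM in PBS and 1761, 1634 and 1569 CPM in the arms, and its log2 fold change was -0.05 ± 0.12. For Abcg1, which exports cholesterol to HDL, it was -0.24 ± 0.12 (adjusted p = 0.248), and for Scarb1, the HDL receptor SR-BI, 0.54 ± 0.25 (adjusted p = 0.204, with 25 of 29 inhibitor samples above the PBS median). The directions of Abca1 and Abcg1 turned with the Rn45s covariate. The fatty acid and modified lipoprotein receptor Cd36 had -0.33 ± 0.17 (adjusted p = 0.259). On the list of 18 scavenger and lipoprotein receptors 2 rose, Stab1 and Lrp1, and 0 fell (edgeR; 4 higher and 0 lower at an unadjusted p under 0.05, and by DESeq2 2 higher and 0 lower). Of 23 genes of cholesterol synthesis, edgeR called 0 in either direction (1 higher and 2 lower at an unadjusted p under 0.05, and by DESeq2 0 higher and 2 lower), with a median of 0.16. Apoe itself lay between 0 and 12.0 CPM in every group, as all groups carry the same disrupted allele.

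**Figure D3:**
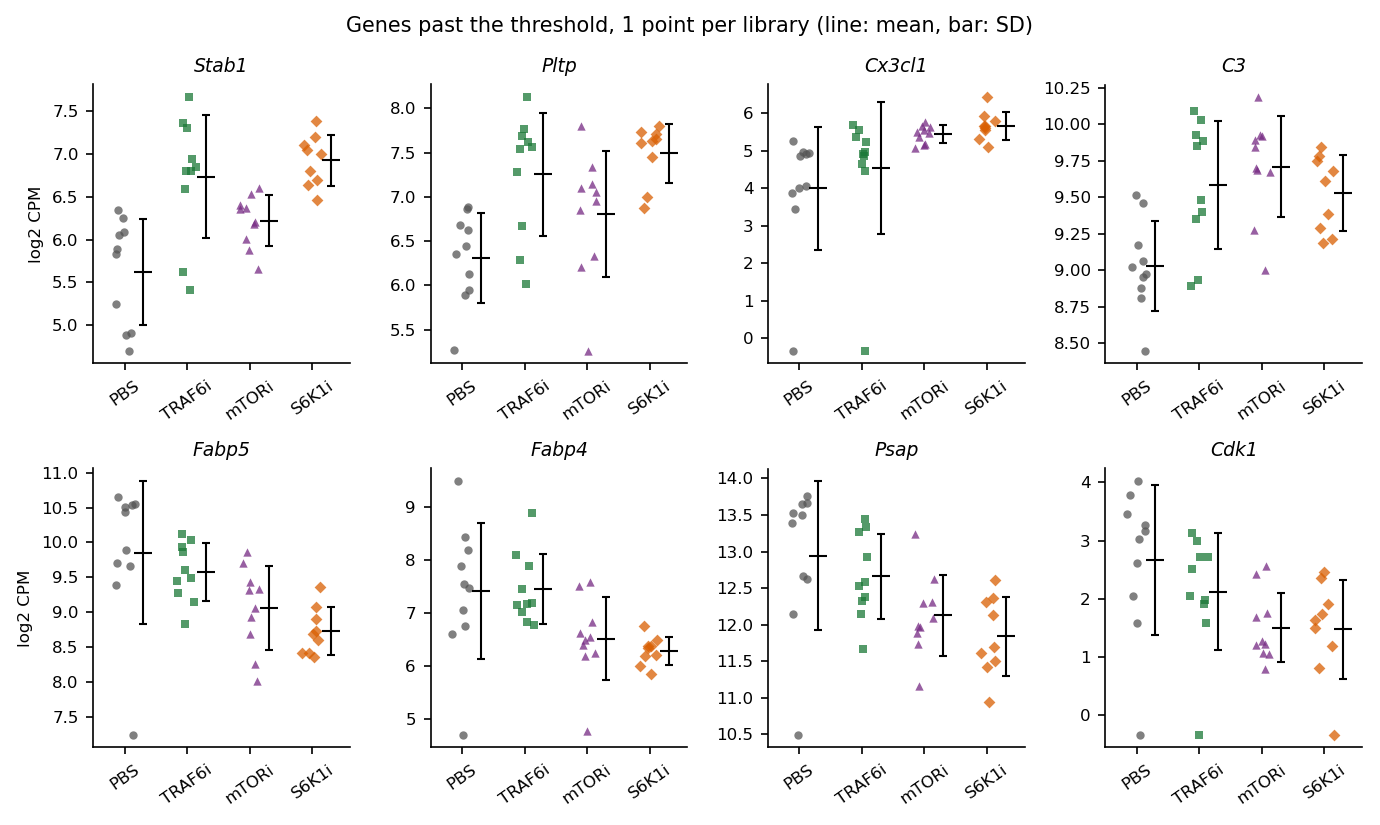
Log2 CPM (prior count 2) of 8 genes past the threshold in every library, with group means and SD bars for PBS (n = 10), TRAF6i-HDL (n = 10), mTORi-HDL (n = 10) and S6K1i-HDL (n = 9). Stab1, Pltp, Cx3cl1 and C3 are lowest on average in PBS; for Psap, 6 PBS libraries form an upper group and the other 4 lie lower, at 1441 to 6517 CPM.

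Genes of lipid-laden macrophages and of lysosomes fell in part. Fabp5, a fatty acid binding protein of macrophages, had medians of 1168 CPM in PBS (152 to 1602), 748 CPM with TRAF6i-HDL (455 to 1117), 587 CPM with mTORi-HDL (258 to 935) and 412 CPM with S6K1i-HDL (329.5 to 660.0). All 29 inhibitor samples lay below the PBS median, and the lowest PBS value again came from the library with 50091 counts. The log2 fold change was -0.91 ± 0.18 (adjusted p = 0.00976), called in each of the 39 fits that left out 1 library. It was -0.76 with the Rn45s covariate and -0.83 ± 0.33 in the libraries of 10 to 35% Rn45s, without passing in either. Arm values of Fabp5 were -0.46, -0.93 and -1.32 for TRAF6i-HDL, mTORi-HDL and S6K1i-HDL. They differed from each other (adjusted p = 0.0432 in the test among arms). Fabp4, the related protein of fat cells and foam cells, had -1.03 ± 0.26 (adjusted p = 0.0326), with arm values of -0.30, -1.21 and -1.57 for TRAF6i-HDL, mTORi-HDL and S6K1i-HDL that differed from each other (adjusted p = 0.0302). Of 24 foam cell genes tested, edgeR called these 2 lower and 0 higher, against 1.19% and 0.932% of all genes. At an unadjusted p under 0.05, 0 were higher and 8 lower, against 1014 and 1095 of all 10411. By DESeq2, 0 were higher and 5 lower. The median was -0.28, and 19 lay below 0, against 5246 of all 10411. That median was 0.00 with the Rn45s covariate and 0.20 in the libraries of 10 to 35% Rn45s.

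Psap, the precursor of the saposins that activate lysosomal lipid hydrolysis, differed within PBS as well as between the groups. Its median was 11181 CPM in PBS (1441 to 13860), 6007 CPM with TRAF6i-HDL (3232 to 11177), 4191 CPM with mTORi-HDL (2276 to 9640) and 3304 CPM with S6K1i-HDL (1969 to 6258). All 29 inhibitor samples lay below the PBS median, and the log2 fold change was -0.88 ± 0.21 (adjusted p = 0.0218). The PBS libraries 1 to 6, which held little Rn45s, had 10727 to 13860 CPM, whereas PBS libraries 7 to 10 had 1441 to 6517 CPM. In the libraries of 10 to 35% Rn45s the log2 fold change of Psap was 0.08 ± 0.29 (adjusted p = 0.981). The call was lost without PBS replicate 1, 3, 4 or 6. A further pair of lysosomal genes fell, Hpse (heparanase, -0.65 ± 0.17) and Galns (a sulfatase of keratan sulfate, -0.41 ± 0.11), and both differed among arms (adjusted p = 0.00951 and 0.00128). Of 51 lysosomal genes 3 fell and 0 rose, against 1.19% and 0.932% of all genes, with a median of -0.03 (edgeR; 3 higher and 11 lower at an unadjusted p under 0.05, and by DESeq2 0 higher and 6 lower).

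A few mitochondrial and proteasome genes fell. Of 74 genes of oxidative phosphorylation 3 fell and 0 rose, against 1.19% and 0.932% of all genes, and 63 had a fold change below 0, against 5246 of all 10411, with a median of -0.31 (edgeR; 1 higher and 33 lower at an unadjusted p under 0.05, and by DESeq2 0 higher and 7 lower). They were Cox7c of complex IV (-0.79 ± 0.18), Atp5l of the ATP synthase (-0.63 ± 0.14) and Ndufs4 of complex I (-0.53 ± 0.15). The median was -0.10 with the Rn45s covariate and -0.07 in the libraries of 10 to 35% Rn45s, and 0 of the 74 passed in either (edgeR). Of 36 proteasome subunit genes, Psma1 (-0.60 ± 0.17) and Psma2 (-0.59 ± 0.15) fell, with a median of -0.16, which was -0.12 and -0.11 in the further fits. Of 75 cytosolic ribosomal protein genes Rps10 rose (0.57 ± 0.15) and Rpl17 fell (-0.50 ± 0.14), and 63 had a fold change below 0, with a median of -0.19 (edgeR; 1 higher and 25 lower at an unadjusted p under 0.05, and by DESeq2 1 higher and 6 lower). That median was 0.03 with the Rn45s covariate and 0.13 in the libraries of 10 to 35% Rn45s, where Rpl17 was at 0.10 ± 0.18. For Rps10 all 29 inhibitor samples lay above the PBS median, but in the libraries of 10 to 35% Rn45s its log2 fold change was 0.01 ± 0.17. Both genes differed among the arms (adjusted p = 0.0423 for Rps10 and 0.000836 for Rpl17 in the test among arms). Rps10 had 0.41 for TRAF6i-HDL, 0.91 for mTORi-HDL and 0.39 for S6K1i-HDL. Rpl17 had -0.31, -0.12 and -1.06 in that order, and 11 of 29 inhibitor samples lay above its PBS median.

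Among signalling and immune genes, Cx3cl1 and C3 rose. Cx3cl1 encodes fractalkine, the chemokine that draws cells bearing CX3CR1, and its medians were 22.1 CPM in PBS (0 to 37.3), 30.05 CPM with TRAF6i-HDL (0 to 50.2), 44.0 CPM with mTORi-HDL (32.6 to 53.3) and 49.2 CPM with S6K1i-HDL (33.6 to 85.2). The values of 0 came from PBS replicate 9 and TRAF6i-HDL replicate 7. Of the inhibitor samples, 18 lay above every PBS sample, and the log2 fold change was 0.82 ± 0.17 (adjusted p = 0.0122). C3, the central complement component, had medians of 510.0 CPM in PBS (349 to 730.3) and 818, 873 and 782 CPM in the arms. Its log2 fold change was 0.59 ± 0.13 (adjusted p = 0.0154), with arm values of 0.59, 0.68 and 0.49 for TRAF6i-HDL, mTORi-HDL and S6K1i-HDL. With the Rn45s covariate the 2 genes had 0.65 (Cx3cl1) and 0.23 (C3) without passing. C3 was the only gene of 19 complement genes to pass, and Cx3cl1 the only one of 29 inflammatory cytokines and chemokines. Of 34 interferon-stimulated genes 0 passed (edgeR; 2 higher and 0 lower at an unadjusted p under 0.05, and 0 by DESeq2), and of 33 immediate early genes 0 passed (4 higher and 2 lower at an unadjusted p under 0.05, and 1 higher by DESeq2). Irgm1, an interferon-inducible GTPase outside that count, fell by 0.91 on the log2 scale (SE 0.19, adjusted p = 0.0124). Fcgr4, an activating Fc receptor, fell by 0.72 (SE 0.18, adjusted p = 0.0308), but its value was 0.06 ± 0.28 in the libraries of 10 to 35% Rn45s. Fcgr4 differed among the arms (adjusted p = 0.00371 in the test among arms). Its arm values were -0.21 for TRAF6i-HDL, -1.33 for mTORi-HDL and -0.61 for S6K1i-HDL.

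The genes of the targeted pathways were not called as a group. Of 46 genes of the mTORC1, S6K1 and TRAF6 pathways 1 rose and 0 fell (edgeR; 4 higher and 5 lower at an unadjusted p under 0.05, and by DESeq2 2 higher and 0 lower). It was Eif4ebp2, a translation repressor that mTORC1 phosphorylates, with a log2 fold change of 0.81 ± 0.20 (adjusted p = 0.0224), which was 0.37 with the Rn45s covariate and 0.08 ± 0.24 in the libraries of 10 to 35% Rn45s. The log2 fold changes were 0.26 ± 0.14 for Traf6, 0.24 ± 0.37 for Cd40, 0.30 ± 0.17 for Mtor and -0.13 ± 0.13 for Rps6kb1, all without passing, and the drugs act on the proteins. Slc7a5, the leucine transporter of the amino acid response, rose by 1.16 ± 0.32 on the log2 scale from a low level, with medians of 1.93 CPM in PBS and 3.47, 5.17 and 4.70 CPM in the arms (adjusted p = 0.0388). Atg9a, the membrane carrier protein of autophagy, rose by 1.04 ± 0.27 (adjusted p = 0.0303) as the only one of 33 autophagy genes to pass. Cdk1, the kinase of mitotic entry, fell by 1.24 on the log2 scale (SE 0.28, adjusted p = 0.0154), with medians of 7.74 CPM in PBS and 4.11, 1.59 and 2.32 CPM in the arms, and 28 of 29 inhibitor samples below the PBS median. It was the only one of 27 cell cycle genes to pass, with a list median of -0.22.

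The other genes with the smallest p belong to varied functions. Nr1d1, which encodes the clock repressor REV-ERBα, had medians of 30.8 CPM in PBS (13.7 to 40.1) and 49.4, 44.3 and 69.0 CPM in the arms, and its log2 fold change was 0.80 ± 0.16 (adjusted p = 0.00976). It was called in each of the 39 fits that left out 1 library, and its value was 0.59 with the Rn45s covariate and 0.67 ± 0.23 in the libraries of 10 to 35% Rn45s. On a list of 18 clock genes added after the data were seen, Nr1d1 rose and Bhlhe41, another clock repressor, fell (-0.47 ± 0.12, adjusted p = 0.0326), with a median of 0.02. The labels used here give no time of day. Further genes that rose were Hdac4, a histone deacetylase (1.02 ± 0.23), Cabin1, a calcineurin inhibitor (0.79 ± 0.18), Camta2, a calmodulin-binding activator (0.74 ± 0.16), Sbno2, a coregulator of the interleukin-10 response (0.69 ± 0.16), Cic, the repressor Capicua (0.67 ± 0.15) and Arid1a, a SWI/SNF subunit (0.45 ± 0.10). With the Rn45s covariate Hdac4 was at 0.48, Cabin1 at 0.40, Camta2 at 0.43, Sbno2 at 0.35, Cic at 0.34 and Arid1a at 0.49. Slco2a1, the prostaglandin transporter (0.72 ± 0.14), Csrp1, a LIM protein of the actin cytoskeleton (1.04 ± 0.21), Pcp4l1 (1.16 ± 0.26), Tanc2, a scaffold protein (0.59 ± 0.13), and Wdfy3, an adaptor for selective autophagy (0.49 ± 0.11), also rose. The adjusted p of these genes lay between 0.00966 and 0.0156, and without PBS replicate 3 Tanc2, Cic, Cabin1, Wdfy3, Sbno2, Hdac4 and C3 were not called.

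Of the genes that fell with the smallest p, Rala, a GTPase of exocytosis, had a log2 fold change of -0.66 ± 0.12 (adjusted p = 0.00377), and 18 of 29 inhibitor samples lay below every PBS sample. Ranbp1 of nuclear transport had -0.76 ± 0.14 (adjusted p = 0.00638), and Hnrnpf (-0.76 ± 0.15) and Sfpq (-0.64 ± 0.14) encode splicing factors. Arpc1a, a subunit of the actin-branching Arp2/3 complex, had -0.85 ± 0.18, and its partner Arpc1b -0.46 ± 0.13. Bax, an effector of apoptosis, had -0.54 ± 0.12, Igsf6, a myeloid membrane protein, -0.64 ± 0.13, Ninl of the centrosome -0.81 ± 0.18, Tma7 of the translation machinery -0.77 ± 0.17 and the transcript AK010878 -0.98 ± 0.21. All of these but Arpc1b (adjusted p = 0.0491) had an adjusted p of at most 0.0154. In the libraries of 10 to 35% Rn45s, Hnrnpf was at 0.03 ± 0.18 and Tma7 at 0.21 ± 0.22, so that their direction turned, and Rala was at -0.30 ± 0.17.

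Structural genes of adhesion and the actin cytoskeleton moved both ways. Of 40 tested, 3 rose and 2 fell, against 0.932% and 1.19% of all genes, with a median of 0.09. Flna (filamin A, 0.53 ± 0.13), Itga5 (the fibronectin receptor subunit, 0.57 ± 0.16) and Tln1 (talin, 0.51 ± 0.14) rose, and Tmsb10 (thymosin β10, -0.42 ± 0.11) and Arpc1b fell. The values of Flna and Tln1 were 0.17 and 0.01 with the Rn45s covariate. Flna differed among the arms (adjusted p = 0.0121 in the test among arms). Its arm values were 0.13 for TRAF6i-HDL, 0.68 for mTORi-HDL and 0.77 for S6K1i-HDL.

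Markers of other cell types that a captured area can hold were measured beside these genes. In bulk tissue fewer cells of a type and less RNA per cell cannot be told apart. Over all 10411 genes, 0.932% passed as higher and 1.19% as lower, and 5165 had a fold change above 0 and 5246 below 0. Of 20 macrophage markers 0 passed (edgeR; 3 higher and 4 lower at an unadjusted p under 0.05, and by DESeq2 3 higher and 2 lower). Their summed median was 21553 CPM in PBS (6262 to 30081), 20108 CPM with TRAF6i-HDL (12427 to 27997), 15791 CPM with mTORi-HDL (8144 to 21969) and 14729 CPM with S6K1i-HDL (11351 to 17423), and its part in the foam cell and lysosomal results was not tested. Of 9 tested smooth muscle markers all had a fold change above 0, with a median of 0.59, and Smtn (smoothelin, 1.03 ± 0.26, adjusted p = 0.0318) rose. Their summed medians were 426 CPM in PBS and 534, 611 and 705 CPM in the arms, with overlapping ranges, and the list median was 0.31 with the Rn45s covariate and -0.07 in the libraries of 10 to 35% Rn45s. The part of smooth muscle RNA in the rise of Csrp1 and Flna was not tested. Of 15 endothelial markers Flt1 (a VEGF receptor, 0.60 ± 0.14) and Eng (endoglin, 0.61 ± 0.17) passed, both higher (0.45 and 0.08 with the Rn45s covariate, 0.30 and 0.11 in the libraries of 10 to 35% Rn45s), and the list had a median of 0.12, and the summed medians were 735 CPM in PBS and 795, 1043 and 676 CPM in the arms. The part of endothelial RNA in the rise of Stab1, Slco2a1 and Cx3cl1 was not tested. Of 7 tested markers of resident-like macrophages F13a1 (-0.88 ± 0.25) and Sepp1 (-0.78 ± 0.21) passed, both lower, with a median of -0.41. In the libraries of 10 to 35% Rn45s F13a1 was at -1.60 ± 0.32 (adjusted p = 0.0177) and Sepp1 at 0.64 ± 0.23. Sepp1 differed among the arms (adjusted p = 0.00241 in the test among arms). Its arm values were -0.12 for TRAF6i-HDL, -1.48 for mTORi-HDL and -0.76 for S6K1i-HDL. Of 4 T and NK cell markers Cd28 fell (-0.86 ± 0.21), with arm values of -2.03 for mTORi-HDL, -0.24 for TRAF6i-HDL and -0.31 for S6K1i-HDL (adjusted p = 1.59e-05 among arms). Of 9 red cell markers the 6 haemoglobin genes were at 0 in all 39 libraries, and the summed medians were 2.94 CPM in PBS and 8.58, 7.00 and 5.50 CPM in the arms (highest 27.0 CPM). Of 9 fat cell markers Lep was at 0 in all 39 libraries, and the summed medians were 2.90 CPM in PBS and 5.40, 5.37 and 6.90 CPM in the arms (highest 44.8 CPM); the 1 member tested had a log2 fold change of 0.95 without passing.

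**Figure D4:**
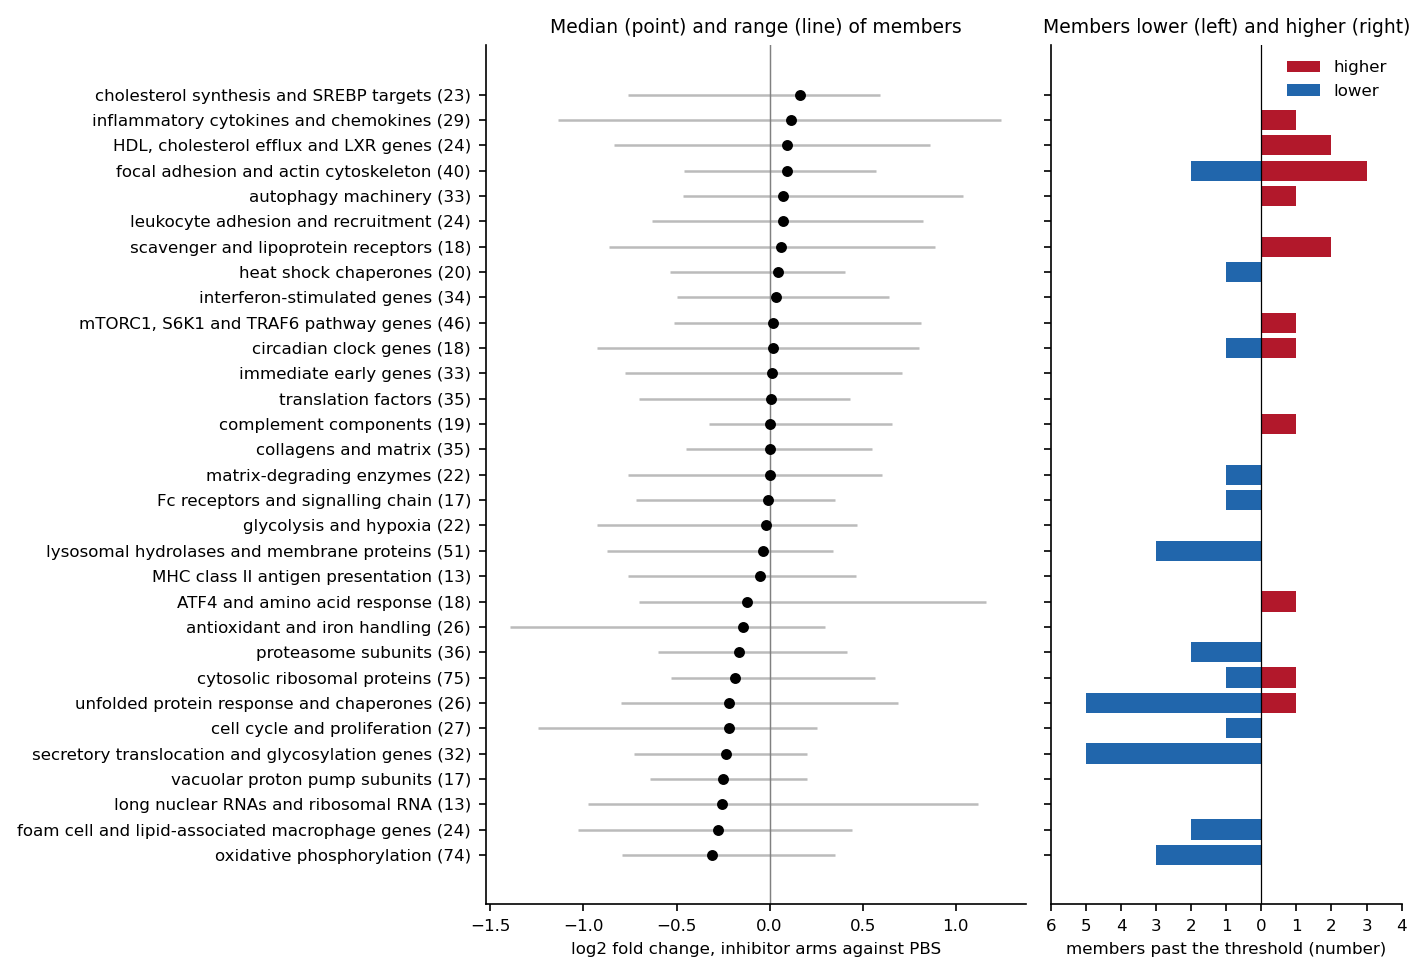
Left, median (point) and range (line) of the pooled log2 fold change of the tested members of each pathway list with at least 5 tested members (lists of cell type markers are not drawn), with the number tested in brackets; right, number of members past the threshold, lower to the left and higher to the right. The unfolded protein response list has 5 lower and 1 higher members, and oxidative phosphorylation has the lowest median of the lists drawn, -0.31.

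The 3 arms did not contribute alike. Over the 97 genes that rose, the median log2 fold change was 0.57 for TRAF6i-HDL, 0.59 for mTORi-HDL and 0.85 for S6K1i-HDL, and over the 124 that fell it was -0.43, -0.62 and -0.85, beside 0.00, 0.01 and 0.00 over all genes. These arms share the PBS samples, and the genes were chosen on the mean of the 3 arms, so the medians are a description. A test among the arms that does not use the PBS mean called 818 genes (7.86%). They included 15 of the 97 higher genes (15.5%) and 27 of the 124 lower ones (21.8%). Besides those given above, Cic and Camta2 were among the higher ones, and Atp5l, Cox7c, Ranbp1, Igsf6, Arpc1a, Ninl and Bax among the lower ones. With the S6K1i-HDL arm left out of the contrast, edgeR called 0 genes higher and 0 lower, with 730 higher and 695 lower at an unadjusted p under 0.05, and no other tool was run in that setting. With the TRAF6i-HDL arm left out it called 275 higher and 386 lower, and with the mTORi-HDL arm left out 220 higher and 208 lower. As examples chosen after their values were seen, C3, Tanc2, Hdac4, Arid1a and Tmsb10 had arm values that did not differ past the threshold (adjusted p of 0.675, 0.723, 0.816, 0.525 and 0.937 among arms), which does not show that the arms acted alike.

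**Figure D5:**
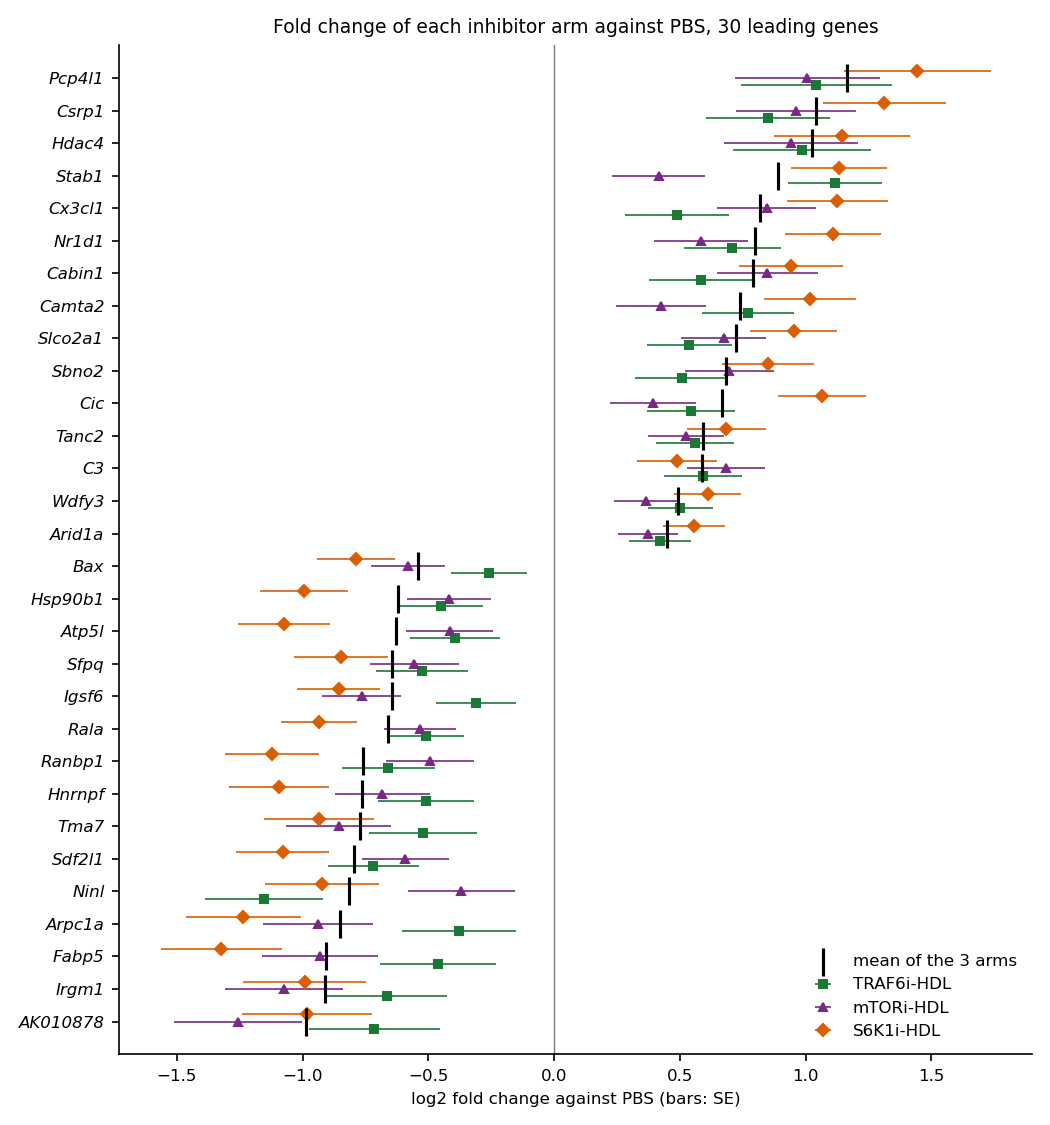
Log2 fold change against PBS (x axis, bars are SE) of each inhibitor arm for the 15 higher and 15 lower genes with the smallest p among those averaging at least 3 on the log2 CPM scale, with the mean of the 3 arms as a black bar. All plotted arm values lie on the side of their mean, and S6K1i-HDL is farthest from 0 in most of them.

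The genes that differed most among the arms did not pass in the pooled comparison, and their arm values had opposite signs. Ccl9, a chemokine of myeloid cells, had arm values of -0.47, 0.96 and -0.13 for TRAF6i-HDL, mTORi-HDL and S6K1i-HDL (adjusted p = 2.31e-06 among arms), and a pooled value of 0.12 ± 0.15. Ereg, a growth factor of the EGF family, had -0.85, 0.81 and -0.42 (adjusted p = 6.46e-06). Genes of the translation apparatus split mTORi-HDL from S6K1i-HDL. The S6K1 substrate gene Rps6 had -0.20, 0.29 and -0.87 (adjusted p = 2.54e-06), Eef1b2, an elongation factor subunit, -0.21, 0.45 and -0.83 (adjusted p = 4.17e-06), and Rps3a1 -0.04, 0.42 and -0.66 (adjusted p = 4.89e-06). Of the 75 ribosomal protein genes 47 differed among the arms, against 7.86% of all genes. The median Rn45s share was 25.6% for mTORi-HDL and 41.8% for S6K1i-HDL, and its part in this split was not tested. Without mTORi-HDL replicates 5 to 10 and S6K1i-HDL replicates 7 to 9, the genes called among arms numbered 357 instead of 818, with fewer samples.

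The genes that rose and those that fell also differed in the make-up of their transcripts. The higher genes had a median GC content of 56.0% and a median length of 4869 bases (97 of 97 matched), and the lower genes 45.9% and 2816 bases (121 of 124 matched), beside 48.9% and 3634 bases over all tested genes (10353 of 10411 matched, GENCODE M21). After each library was corrected for its dependence on GC content and transcript length, 6 genes were higher (0.0576%) and 45 lower (0.432%). Sdf2l1, Hsp90b1 and Stab1 remained called after this correction, with log2 fold changes of -0.83, -0.56 and 0.54. Other named genes also remained called after it, among them Fabp5 (-0.92), Psap (-0.98), Galns (-0.57), Cdk1 (-1.31) and Nr1d1 (0.62). Pdia4 (-0.49, adjusted p = 0.083), Hspa5 (-0.59, adjusted p = 0.0599), Manf (-0.55, adjusted p = 0.0633) and Syvn1 (0.45, adjusted p = 0.194) were not called after it, and Arid1a was at 0.08. Depth and composition differ between the groups and are tied to them, so that their part in single genes was not tested beyond these fits.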

How the data were processed

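RNA from 39 laser-captured plaque samples was sequenced, and the authors deposited raw read counts per gene symbol, 1 file per sample, with 24062 symbols and 5 closing lines that name no gene. TopHat2 2.1.0, Bowtie2 2.2.8 and HTSeq 0.6.1 are named in the submitters' processing notes, with no role given; whether counting used strand is not given in the sources used here, so overlapping and antisense genes cannot be told apart. The closing lines were left out of library sizes and tests. Against all lines, reads in no gene had a mean share of 53.2% in PBS and 49.6% in the inhibitor samples, and multiply aligned reads 15.5% and 17.7%. No column belonged to another series. Groups were taken from the labels.

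Genes were filtered with filterByExpr, scaled by TMM and tested with edgeR 4.0.16 in R 4.3.3 (robust quasi-likelihood fit of all 39 samples, so that the 4 groups share 1 estimate of the spread). The contrast was the mean of the 3 arms against PBS, two-sided, with Benjamini-Hochberg adjustment over 10411 genes and a threshold of 0.05; a test with 2 degrees of freedom compared the arms. Levels are TMM-scaled CPM computed from the deposited counts, and log2 CPM in plots has a prior count of 2. The test was checked on simulated data. Library measures were compared with 100000 permutations. Named genes were, per direction, the 15 of smallest p (mean log2 CPM from 3 upward, regular symbol), up to 3 called members of each list, the 5 most unlike among arms, and a fixed set, of which 1 gene is not reported here. The members, lists and tests were chosen with earlier results of these data known. The lists of clock genes and of secretory translocation and glycosylation were added after values were seen. Replicate numbers showed no clear pairing of the samples and were not used in the main fit. Alternatives included DESeq2 1.42.0, limma 3.58.1 (voom), covariates, offsets and leaving out libraries. No 2 libraries of a group agreed within sampling noise (lowest chi-square per gene 2.28).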

Additional observations from a re-analysis of the deposited data

Results flagged for a closer look

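Of 344 groups of 9 or 10 samples examined (each named gene and library measure in each group), 70 held a sample whose gap to the nearest other sample was large for the range of its group, where chance flags about 17.2. Most lay in the 3 libraries under 200000 counts, in which 1 count is worth many CPM. Levels are in CPM.

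In PBS replicate 9, Cx3cl1, Pcp4l1, Cabin1, Slc7a5, Ndufs4, Cd28, Flt1, Syvn1, Mtor and Scarb1 were at 0, Ranbp1 and Fcgr4 at 12.6, Rps6kb1 at 25.3, Ereg at 75.8, Fabp5 and Cd68 at 152, Abca1 at 607 and Psap at 1441, and 6679 genes were detected. In TRAF6i-HDL replicate 7, Cx3cl1, AK010878, Srebf1, Cdk1, Cd28, Smtn and Scarb1 were at 0, Nr1d1, Sbno2, Sdf2l1 and Fcgr4 at 9.68, Cd68 at 406 and Abca1 at 1190.27. In S6K1i-HDL replicate 1, which held 118527 counts and 8270 detected genes, Sdf2l1, AK010878, Arpc1a, Slc7a5, Apoe, Cd40 and Mtor were at 0, Eif4ebp2 and Hspe1 at 7.91, Nr1d1 and Syvn1 at 15.8, Galns at 23.7 and F13a1 at 39.5.

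Among the deeper libraries, TRAF6i-HDL replicate 8 had Camta2 at 17.6, Hdac4 at 2.198, Traf6 at 6.595, Arpc1a at 167, Sfpq at 329.75, Arpc1b at 635 and Rn45s at 24492. PBS replicate 3 had Tanc2 at 24.0, Manf at 25.7, Sfpq at 491 and Rps6 at 614. In mTORi-HDL replicate 5, AK010878 was at 17.3, Tln1 at 93.4, Rps6kb1 at 97.3 and Arpc1b at 473. Fabp4 was at 26.4 and Traf6 at 20.4 in mTORi-HDL replicate 8, Atg9a at 1.22 in mTORi-HDL replicate 1, and multiply aligned reads at 11.7% in mTORi-HDL replicate 7. Irgm1 was at 73.2 and Flna at 334 in S6K1i-HDL replicate 9, and Ninl was at 6.01 in S6K1i-HDL replicate 5 and at 15.6 in TRAF6i-HDL replicate 9. The cause of these values was not tested.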

How the results depend on the processing

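The counts of called genes depended strongly on the setting, and the cause was not tested except where a setting uses fewer samples or another threshold. Counts follow as higher and lower: 147 higher with DESeq2 size factors, 358 and 245 by DESeq2's Wald test, 177 and 243 by limma-voom (with 1589 among arms), 36 and 31 with equal weight for the 29 samples, 275 and 386 without the TRAF6i-HDL arm, 220 and 208 without the mTORi-HDL arm, and 0 and 0 without the S6K1i-HDL arm (edgeR, with 1425 genes at an unadjusted p under 0.05 and no other tool run). Covariates gave 0 and 4 (log2 Rn45s share; also 0 and 4 without the 3 smallest libraries), 1 and 5 (log2 total counts) and 4 and 18 (detected genes). Leaving out libraries under 1000000 counts gave 5 and 14 (1229 among arms), and leaving out mTORi-HDL replicates 5 to 10 and S6K1i-HDL replicates 7 to 9 gave 148 and 189 (357 among arms). Thinning to 1000000 counts gave 13 and 20 (252 among arms), an adjusted p under 0.2 gave 813 and 855 (2390 among arms), a log2 fold change of at least 1 gave 15 and 11, offsets for GC content and length gave 6 and 45, and libraries of 10 to 35% Rn45s gave 3 and 15. The offsets, the covariate without small libraries and the Rn45s range were chosen after seeing the data. Leaving out 1 library gave 10 to 326 higher, 4 to 364 lower and 620 to 921 among arms. Counts moved by over 1.5 times without PBS replicate 1 (36 and 45), 2 (78 lower), 3 (10 and 4), 4 (38 and 43), 5 (41 and 52), 6 (24 and 27), 8 (230 and 218) or 10 (217 and 227). They also moved without TRAF6i-HDL replicate 4 (57 higher), 8 (326 and 364), 9 (63 and 82) or 10 (63 and 77), mTORi-HDL replicate 5 (198 and 209), or S6K1i-HDL replicate 2 (57 higher), 3 (51 and 81), 4 (58 higher), 5 (55 higher), 8 (56 higher) or 9 (161 and 200). The replicate block gave 78 and 82 (684 among arms). The numbers showed no clear pairing of the samples. Of 57 same-numbered pairs 7 correlated over 0.1 (mean 0.01, highest 0.29), and 6 of 39 libraries matched their own number best. Low correlation does not show that the samples were unpaired. Without the 3 smallest libraries, detected genes differed by 956.889 (permutation test, adjusted p = 0.0131) and reads in no gene by -3.89 percentage points (permutation test, adjusted p = 0.0488). The shares of promoter motifs were not computed for the Rn45s covariate, which left 0 higher genes.

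Log2 fold changes turned as follows. Ereg was 0.077 (equal weight), 0.19 (no TRAF6i-HDL arm) and 0.048 (libraries under 1000000 out). Without the mTORi-HDL arm Ccl9 was -0.30 and Cd68 0.15, and without the S6K1i-HDL arm Rps6 was 0.046, Eef1b2 0.12 and Rps3a1 0.19. With the Rn45s covariate Cd68 was 0.17, Rps6kb1 0.14, Abca1 0.032 and Abcg1 0.0074, and with small libraries also out Cd68 was 0.10 and Rps6kb1 0.11. Cd40 was -0.050 (total counts) and -0.074 (detected genes), and under the offsets Rps3a1 was 0.067 and Mtor -0.0033. In libraries of 10 to 35% Rn45s, Hnrnpf was 0.025, Tma7 0.21, Psap 0.083, Fcgr4 0.062, Rpl17 0.096, Psma1 0.029, Sepp1 0.64, Cd68 0.40, Traf6 -0.0040, Mtor -0.046, Rps6kb1 0.089, Abca1 0.22, Abcg1 0.41 and Rn45s -0.11. Leaving out 1 library gave -0.16 to 0.0078 for Cd68 (above 0 without PBS replicate 4) and -0.14 to 0.0048 for Abca1 (above 0 without PBS replicate 5).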

Other observations

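Within the libraries of 10 to 35% Rn45s, 11 of the 15 lower genes were not called over all libraries. They included the tubulin genes Tubb2a (log2 fold change -0.99), Tuba1a (-0.89) and Tuba1b (-0.82), the mitotic motor gene Cenpe (-1.53), and the matrix genes Sparc (-0.97) and Col12a1 (-0.84). The 3 higher genes there were Serpina3n, a protease inhibitor of the acute phase (1.10), Ndrg1, a stress-induced gene (1.05), and Shisa9 (2.14). Cenpe was also called with the Rn45s covariate (-1.21 ± 0.22, adjusted p = 0.00421). These genes were chosen after their values were seen, and the range held 4 PBS and 3 S6K1i-HDL libraries. These included PBS replicate 9 and S6K1i-HDL replicate 1, both under 200000 counts.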
